A study of Homo sapiens with 4 samples.

Results

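The 45S pre-rRNA is the long transcript from which most of the RNA of the ribosome is cut. RNA polymerase I makes it in the nucleolus from many near-identical repeats on the short arms of the acrocentric chromosomes, and its order from 5′ to 3′ is a 5′ external transcribed spacer (5′ETS), 18S rRNA, internal transcribed spacer 1 (ITS1), 5.8S rRNA, ITS2, 28S rRNA and a 3′ external transcribed spacer (3′ETS). 18S rRNA goes into the small ribosomal subunit and 5.8S and 28S rRNA go into the large one, whereas the spacers are cut away and degraded, so that spacer sequence marks unprocessed or partly processed precursor.

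The peaks described here are those of the FSCN1 IP that overlap the 3 annotated units of 45S pre-rRNA on chromosome 21, on either strand, namely RNA45SN2 (chr21:8205988-8219302), RNA45SN3 (chr21:8389035-8402343) and RNA45SN1 (chr21:8433222-8446572, all GRCh38, plus strand). They were 46 of the 181 peaks of FSCN1 IP replicate 1 and 51 of the 238 peaks of FSCN1 IP replicate 2, and all 97 lay wholly inside a unit. The members were chosen by position alone and not by their tags.

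The experiment was an iRIP-seq of FSCN1 (fascin, an actin-bundling protein) in A549 cells, an established cell line of human lung adenocarcinoma, with 2 IP samples and 2 input samples. In iRIP-seq, proteins are crosslinked to RNA with ultraviolet light, the lysate is treated with a nuclease, the protein is precipitated with an antibody, and the RNA that comes with it is sequenced. The data analysed here were 1 peak list of each IP sample, in which every region is 1 or more bins of 50 bp of 1 strand and carries its mean tags (sequenced fragments as the authors counted them) per bin. The inputs were not analysed here, so no value below is an enrichment over input. Both IP samples were A549 cells under 1 condition with no other treatment in the labels, which give the input of replicate 1 as an input and that of replicate 2 as an input plasmid. The labels name an antibody to the FLAG tag and polyA RNA, whereas the methods name an antibody to FSCN1, and the study names an anti-Flag antibody for its blot of the precipitates. A FLAG antibody sees only a tagged protein, and no expression values were at hand to check either the tag or the cell line. The study calls the IP samples biological replicates, and the labels do not say whether they came from separate cultures. The tags were not scaled to the depth of the library, which is unknown, so that levels were compared within a list and not between lists. Intervals on tags are exact Poisson 95% intervals and those on shares are Wilson 95% intervals, which cover counting error only.

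The sequence of each unit was read from GRCh38, and the bases that carry the peaks described most closely below are shown here on the plus strand, which is the strand of the transcript. Offsets count from 1 at the first base of the unit, and capitals mark bases that differ from at least 1 of the other units at the aligned place. The first pair are the regions with the most tags, in 28S rRNA of RNA45SN2 (chr21:8216651-8216700, replicate 1) and in 5′ETS of RNA45SN2 (chr21:8206401-8206600, replicate 2). The third is the region in 5′ETS of RNA45SN1 with the largest mean tags among those shared by the replicates (chr21:8436301-8436350). The fourth is the place in 5′ETS of RNA45SN1 (chr21:8435551-8435600) that had peaks in RNA45SN1 and RNA45SN3, and RNA45SN2 (chr21:8208317-8208366) and RNA45SN3 (chr21:8391364-8391413) hold the same 50 bases. The last pair are the place in ITS1 with peaks on both strands in RNA45SN1 (chr21:8439051-8439100) and the aligned place in RNA45SN3 (chr21:8394838-8394885). The peaks of RNA45SN3 there (chr21:8394851-8394900, replicate 2) cover only part of the bases shown.
28S of RNA45SN2, offset 10664: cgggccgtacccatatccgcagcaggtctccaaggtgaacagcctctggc
5′ETS of RNA45SN2, offset 414: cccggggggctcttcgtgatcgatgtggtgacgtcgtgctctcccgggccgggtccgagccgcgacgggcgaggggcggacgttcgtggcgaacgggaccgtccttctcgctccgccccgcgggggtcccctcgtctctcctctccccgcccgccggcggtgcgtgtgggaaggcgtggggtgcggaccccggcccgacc
5′ETS of RNA45SN1, offset 3080: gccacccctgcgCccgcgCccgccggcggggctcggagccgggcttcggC
5′ETS of RNA45SN1, offset 2330: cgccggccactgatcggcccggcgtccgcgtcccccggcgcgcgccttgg
ITS1 of RNA45SN1, offset 5830: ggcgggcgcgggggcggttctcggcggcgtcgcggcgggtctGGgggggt
ITS1 of RNA45SN3, offset 5804: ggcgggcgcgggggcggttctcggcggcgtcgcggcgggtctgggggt

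The regions in 5′ETS and ITS1 were dominated by G and C, with a GC content of 76.5%, 88%, 84%, 86% and 85.4% in the order shown from the second to the last, against 64% in the region of 28S rRNA. Most of them held no base that told the units apart. The region at offset 3080 of RNA45SN1 held 3 such bases, and that at offset 5830 of RNA45SN1 held 2, by which it was 50 bases long where the aligned place of RNA45SN3 was 48.

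The units took a large part of both lists. They held 25.4% of the peaks of replicate 1 (95% interval 19.6 to 32.2) and 21.4% of those of replicate 2 (16.7 to 27.1), a mean of 23.4% ± 2.82 (SD, n = 2), and 40.8% on average among peaks above the median tags of each list. Their share of the tags was larger, with 1082 of 2893 tags (37.4%) in replicate 1 and 2446 of 5374 tags (45.5%) in replicate 2, where the tags of a peak are its mean per bin multiplied by its number of bins. The median unit peak had 16 tags per bin in replicate 1 and 12 in replicate 2, against 8 and 7 among the other peaks of the same lists. Without the place with the most tags, which was a different one in each list, the units held 34.0% of the tags in replicate 1 and 32.0% in replicate 2.

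**Figure D1:**
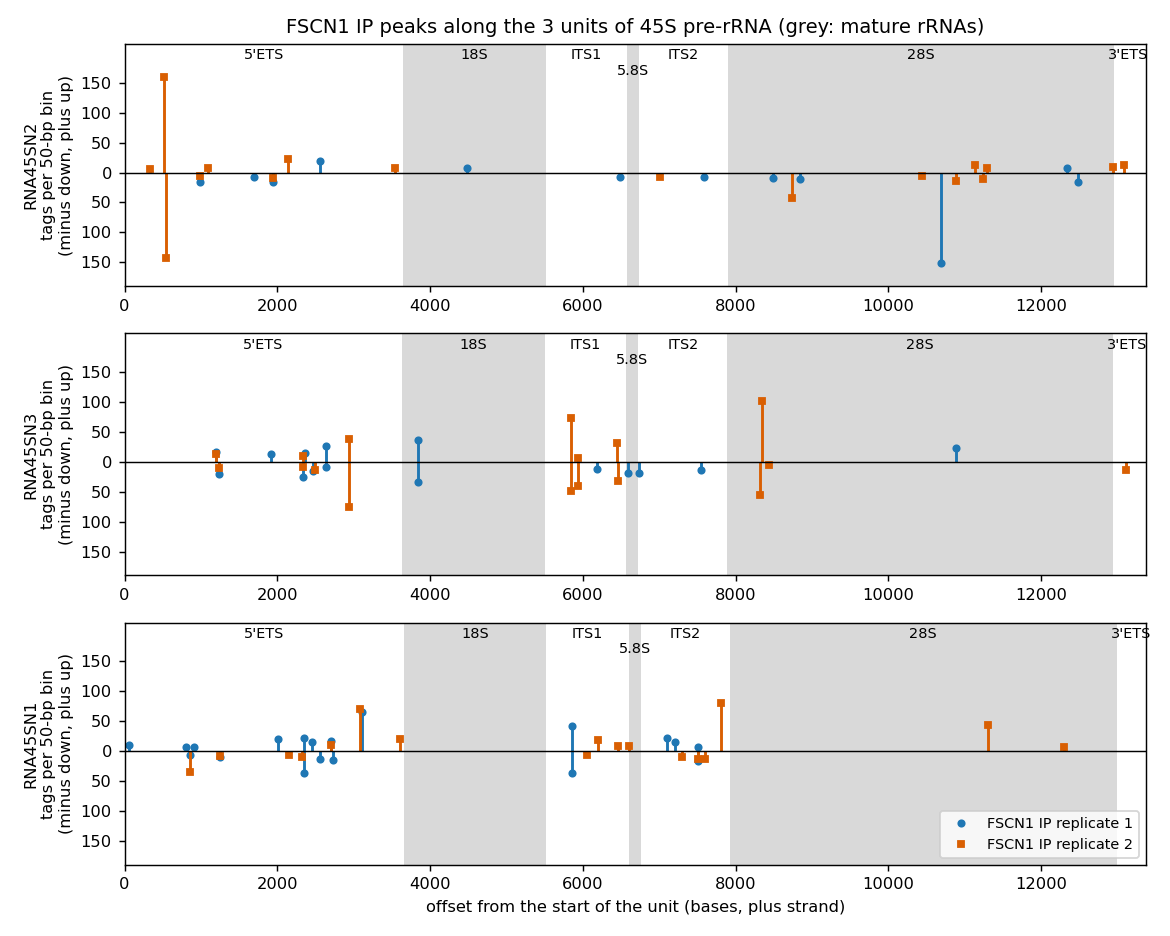
Tags per 50-bp bin of each peak (vertical axis, plus strand upward and minus strand downward) along the 3 units (horizontal axis, offset in bases), for the 2 IP replicates by colour, with mature rRNAs shaded grey. Peaks stand mostly in the unshaded spacers, and the highest are 159.5 and 151 tags per bin in RNA45SN2.

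The spacers, above all 5′ETS, held most of the peaks. In replicate 1, 36 of 46 peaks (78.3%, 95% interval 64.4 to 87.7) lay in a spacer, and in replicate 2, 38 of 51 (74.5%, 61.1 to 84.5) did, although the spacers make up 18722 of the 39975 bases of the 3 units. 5′ETS held 25 peaks in replicate 1 and 22 in replicate 2. ITS1 held 4 and 9 peaks, ITS2 held 7 and 5, and 3′ETS held 0 and 2. Of the mature rRNAs, 28S rRNA held 6 and 12 peaks, 5.8S rRNA held 1 and 1, and 18S rRNA held 3 and 0. Over 3 copies of 18S rRNA, the parts that become the small subunit, a count of 0 in replicate 2 says that no peak was called at the depth and threshold of that list.

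Per length, the spacers of the 3 units together were denser in peaks than the mature rRNAs in both replicates. Of the 803 bins of the units, 48 (5.98%) had a peak in replicate 1 and 54 (6.72%) in replicate 2. Spacers had 1.98 bins with a peak per kb in replicate 1 and 2.19 in replicate 2, against 0.518 and 0.612 in mature rRNAs, a ratio of 3.82 and 3.58. The mean was 2.08 ± 0.151 bins per kb (SD, n = 2) in spacers and 0.565 ± 0.0665 in mature rRNAs, so the gap was wider than the spread between the replicates. The exception by unit was RNA45SN2 in replicate 1, with 1.12 bins per kb in spacers and 1.13 in mature rRNAs and 6 of its 12 peaks in each. 5′ETS had 2.56 and 2.20 bins per kb, or 12.7% and 10.9% of its bins. 28S rRNA, the longest part, had 0.527 and 0.791 bins per kb, or 2.64% and 3.96% of its bins. ITS2 had 1.72 bins per kb in each list. ITS1 varied most among the longer spacers, with 0.932 in replicate 1 and 2.49 in replicate 2. The 5.8S rRNA and 3′ETS are short, so that their 2.12 bins per kb in each list and their 0 and 2.76 rest on 1 to 3 bins. With 1 condition and 2 lists, these differences were described and not tested.

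Tags, summed over the 3 units, were also denser in the spacers, but with a wider spread. Spacers had 39.95 tags per kb in replicate 1 (95% interval 37.1 to 42.9) and 110 in replicate 2 (106 to 115), and mature rRNAs had 15.7 (14.1 to 17.5) and 17.8 (16.1 to 19.7). The ratio was 2.54 in replicate 1 and 6.19 in replicate 2, a mean of 4.37 ± 2.58 (SD, n = 2), and it was 4.64 and 2.99 without the place with the most tags in each list. 5′ETS held 50.9% of the unit tags in replicate 1 and 62.8% in replicate 2, and without those places it held 59.2% and 34.0%, so its majority in replicate 2 rested on 1 place. With all tags, 1 unit of 1 list went the other way. In RNA45SN2 in replicate 1, mature rRNAs had 31.2 tags per kb and spacers 14.8, with 151 of the 221 mature tags in 1 bin of 28S rRNA. Without that bin the whole unit had 12.2 tags per kb, below its spacers. In replicate 2, without its place with the most tags, which lay in 5′ETS, RNA45SN2 had 14.1 per kb. This was below the 14.4 of its mature rRNAs, so the exception moved to that list.

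**Figure D2:**
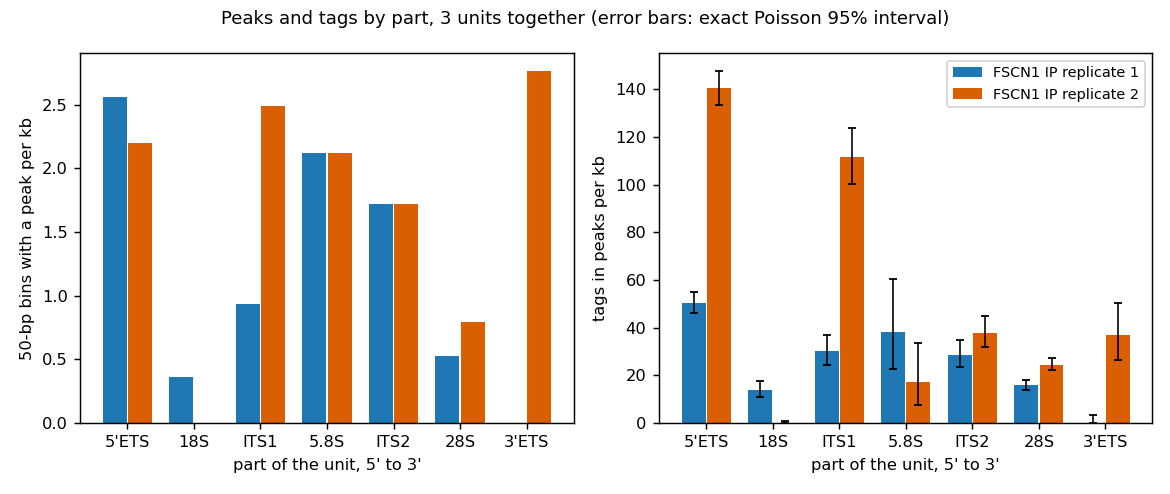
Bins of 50 bp with a peak per kb (left) and tags in peaks per kb (right) in each part of the unit, summed over the 3 units, for the 2 IP replicates, with exact Poisson 95% intervals on the tags. 5′ETS stands at 2.56 and 2.20 bins per kb and 28S at 0.527 and 0.791, and 18S has none in replicate 2.

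The tallest peaks fell mostly at different places in the lists. In replicate 1, the bin at offset 10664 in 28S rRNA of RNA45SN2 had 151 tags on the minus strand (95% interval 128 to 177), and replicate 2 had no peak there. The next were 66 tags at offset 3080 in 5′ETS of RNA45SN1 (plus strand), 42 tags at offset 5830 in its ITS1 (plus strand), 37 tags at offset 3817 in 18S rRNA of RNA45SN3 (plus strand) and 36 tags per bin in 5′ETS of RNA45SN1 (offset 2330, minus strand), a value that the minus strand at offset 5830 equalled. In replicate 2, the region at offset 414 in 5′ETS of RNA45SN2 had 159.5 tags per bin over 4 bins on the plus strand (147 to 172), and 143 per bin over 3 bins on the minus strand at offset 464 (130 to 158). Together these 2 peaks held 1068 tags, or 43.7% of the unit tags of replicate 2, and replicate 1 had no peak there. The next were 101 tags at offset 8317 in 28S rRNA of RNA45SN3 (plus strand), 81 tags at offset 7780 in ITS2 of RNA45SN1 (plus strand) and 76 tags at offset 2917 in 5′ETS of RNA45SN3 (minus strand). Of these 10 peaks, 2 overlapped a peak of the other list on the same strand, those at offsets 3080 and 2330 of RNA45SN1. The 5 tallest peaks held 30.7% of the unit tags in replicate 1 and 54.2% in replicate 2. None of the 10 had a peak of its own list and strand in a neighbouring bin. The lists give neighbouring bins of a strand as 1 region, so this does not show that the peaks stood alone. Of the unit peaks, 39 of 46 in replicate 1 and 42 of 51 in replicate 2 were single bins of 50 bp (84.8% and 82.4%), shorter than the 150-base reads. The shares were 96.3% and 92.0% among all other peaks of the lists. Among those below 9 Mb on chromosome 21 they were 87.9% and 76.5%.

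In each list, 13 unit peaks overlapped a peak of the other list on the same strand. They were 28.3% of the unit peaks of replicate 1 (95% interval 17.3 to 42.5) and 25.5% of those of replicate 2 (15.5 to 38.9), close to the 26% and 19.7% of all peaks of the 2 lists. Of the 13 places, 12 lay in 5′ETS and 1 in ITS2, with 6 in RNA45SN1, 5 in RNA45SN3 and 2 in RNA45SN2. None lay in a mature rRNA or in ITS1.

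The place with the largest mean tags was that in 5′ETS of RNA45SN1 at offset 3080 on the plus strand. It had 66 tags in replicate 1 (95% interval 51.0 to 84.0) and 70.5 tags per bin in replicate 2 (59.3 to 83.1). At offset 2330 of RNA45SN1 on the minus strand, replicate 1 had 36 tags and replicate 2 had 9 per bin. At offset 830 of RNA45SN1 on the minus strand, replicate 1 had 7 tags and replicate 2 had 35. At offset 2317 of RNA45SN3 on the minus strand the values were 26 and 9 tags, and at offset 1217 of RNA45SN3 on the minus strand they were 21 and 11. These are tags as deposited, set side by side without a scale between the lists. Within each list, the plus strand at offset 3080 had the most tags of the shared places.

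**Figure D3:**
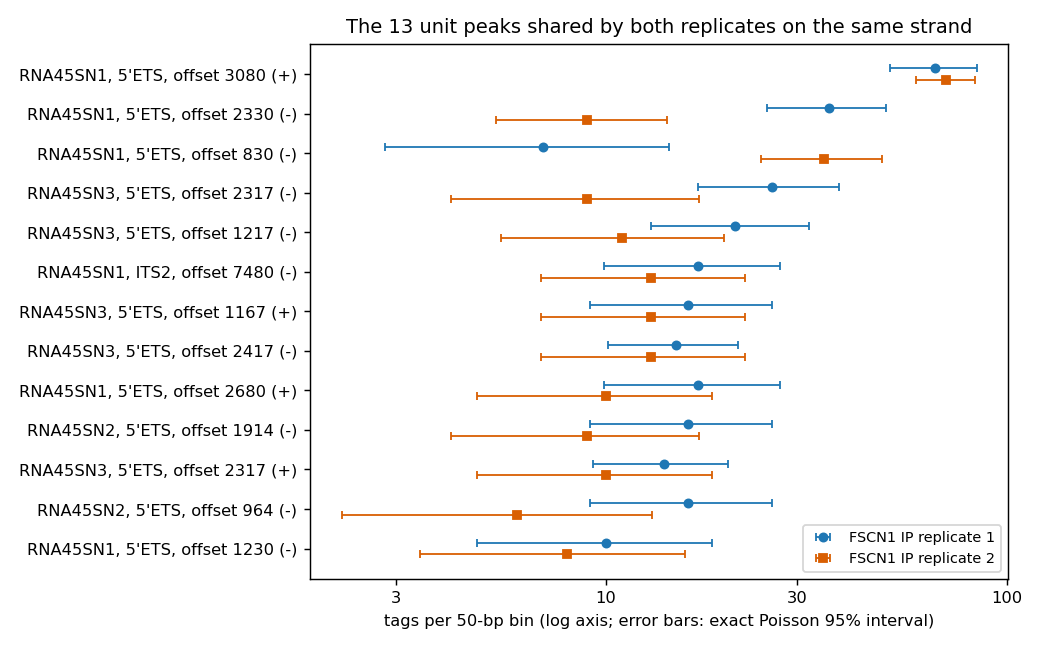
Tags per 50-bp bin (log axis, with exact Poisson 95% intervals) of the 13 unit peaks found in both IP replicates on the same strand, named by unit, part, offset and strand, in order of their mean. The place at offset 3080 of RNA45SN1 has the most tags in each list, 66 and 70.5, and the lists are not scaled to each other.

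Since the units are near-identical copies, a read from any copy can match several, and peaks were also compared by their place in an alignment of the units. RNA45SN2 and RNA45SN3 were 99.4% identical over the alignment, RNA45SN2 and RNA45SN1 99.4%, and RNA45SN3 and RNA45SN1 99.1%. The differences were uneven along the unit, with 16.9 differing columns per kb in 5′ETS, 22.2 in ITS2, 8.36 in ITS1, 8.26 in 3′ETS, 7.49 in 28S rRNA, 0.535 in 18S rRNA and none in 5.8S rRNA. By aligned place, 21 of the 46 unit peaks of replicate 1 (45.7%, 95% interval 32.2 to 59.8) and 18 of the 51 of replicate 2 (35.3%, 23.6 to 49.0) overlapped a peak of the other list on the same strand in any of the units. A search over 3 units finds more by itself. In another unit than their own, 26.1% and 21.6% of the unit peaks met a peak of the other list, and 23.9% and 15.7% met one of their own list. Merged over units, strands and lists, the 97 peaks fell at 50 aligned places, of which 35 had peaks in 1 unit, 12 in 2 units and 3 in all 3, and 18 had peaks in both lists. These 18 were 9 of the 21 places in 5′ETS, 3 of 5 in ITS1, 3 of 7 in ITS2 and 2 of 13 in 28S rRNA. The 1 place in 5.8S rRNA was among them, and none of the 2 in 18S rRNA or the 1 in 3′ETS. That place in 5.8S rRNA joined a minus-strand peak of RNA45SN3 in replicate 1 with a plus-strand peak of RNA45SN1 in replicate 2. A merged place with peaks in both lists thus need not hold the same unit and strand in each.

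The clearest case was ITS1, the spacer between 18S and 5.8S rRNA. In replicate 1 the peak lay at offset 5830 of RNA45SN1, with 42 tags on the plus strand and 36 on the minus strand, and RNA45SN3 had none there. In replicate 2 it lay at the aligned place of RNA45SN3, offset 5817, with 73 tags on the plus strand and 49 on the minus strand, and RNA45SN1 had none there. The unit changed between the lists while the aligned place, over 37 common columns, did not. In 5′ETS, the minus strand at offset 2317 of RNA45SN3 had peaks in both lists (26 and 9 tags), as did offset 2330 of RNA45SN1 (36 and 9 tags), and RNA45SN2 had none at either aligned place although it holds the same 50 bases. Offset 1217 of RNA45SN3 (21 and 11 tags, minus strand) and offset 1230 of RNA45SN1 (10 and 8 tags, minus strand) made a second such pair.

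The methods state that only unique alignments were kept, and each bin was therefore described by how often the 150-base sequences that cover it occur in GRCh38. Searched in the 25 chromosomes and the 169 scaffolds, 729 of the 803 unit bins (90.8%) held no 150-base sequence that occurs a single time, and among the 90 bins with a peak in either list 84 (93.3%) held none. The sources used here do not say whether scaffolds were in the authors' index. Searched in the chromosomes alone, 174 unit bins held such a sequence, or 21.7%, and 25 of the bins with a peak, so that 72.2% of the bins with a peak held none. The units differed in this. With the scaffolds, RNA45SN1 held no such bin in 268, RNA45SN2 held 33 in 268 and RNA45SN3 41 in 267, and yet RNA45SN1 had 19 and 17 peaks. On the chromosomes alone RNA45SN1 held 71 such bins (26.5%), and 15 of its 31 bins with a peak (48.4%) were among them, whereas the shares were 16.4% and 18.2% in RNA45SN2 and 22.1% and 15.4% in RNA45SN3. The reads lie in pairs and can reach beyond a bin, so a bin without such a sequence can still receive a uniquely placed pair from its neighbourhood. Of the 46 unit peaks of replicate 1, 15 covered a bin with a sequence found in a single place on the chromosomes and 29 lay within 300 bases of one, and of the 51 of replicate 2 it was 14 and 28. Of all unit bins it was 174 and 382 of 803.

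**Figure D4:**
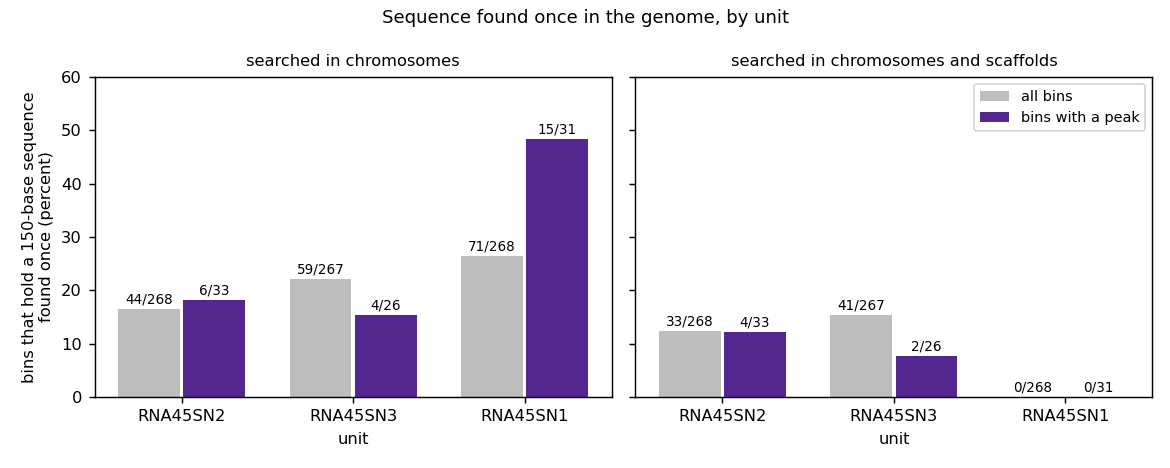
Share of 50-bp bins that hold a 150-base sequence found in a single place of GRCh38, for all bins of each unit and for bins with a peak in either IP replicate, searched in the chromosomes (left) and in chromosomes and scaffolds (right). The numbers over the bars are bins with such a sequence of all bins, and RNA45SN1 falls from 71 of 268 to 0 of 268 when scaffolds are searched.

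Unique sequence and GC content moved in part with the distribution over the unit. On the chromosomes, 32.6% of the bins of 5′ETS, 44.3% of those of ITS2, 18.8% of those of 28S rRNA and 4.46% of those of 18S rRNA held a sequence found in a single place, as did 4.76% of those of ITS1, which had 4 and 9 peaks. Among bins that held none with scaffolds searched, 19.8% of those in 5′ETS, 17.5% in ITS1 and 20.4% in ITS2 had a peak in either list and 13.6% in 3′ETS, against 6.43% in 28S rRNA, 1.79% in 18S rRNA and 18.2% in the short 5.8S rRNA. Among bins that held one, 74 in all, a peak lay in 3 of 29 in 5′ETS (10.3%), 1 of 21 in ITS2 (4.76%) and 0 of 1 in 3′ETS. In 28S rRNA it was 2 of 23 (8.70%). The higher share of ITS2 than of 28S rRNA was thus not seen there, but so few bins cannot order the parts. The bins with a peak had a mean GC content of 77.8% and the bins without one 71.8%, and within 28S rRNA the values were 73.3% and 69.1%. Within ITS2 they were 84.3% with a peak and 82.7% without in replicate 1, and 86% and 82.6% in replicate 2. Within 5′ETS and ITS1 the sign changed between the lists. The values in 5′ETS were 80.1% with a peak and 78.7% without in replicate 1, and 77.6% and 79.0% in replicate 2, and those in ITS1 were 82.7% and 80.2% in replicate 1, and 77.8% and 80.7% in replicate 2. The part of unique sequence and of GC content in the distribution was not tested.

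Peaks stood on the strand of the transcript and on the opposite strand, as they did in the rest of the lists, where 53.3% and 51.9% of peaks were on the plus strand. In replicate 1, 21 of 46 unit peaks (45.7%, 95% interval 32.2 to 59.8) lay on the plus strand, and in replicate 2, 25 of 51 (49.0%, 35.9 to 62.3), a mean of 47.3% ± 2.38 (SD, n = 2). Of the tags, 42.9% and 57.2% were on the plus strand. Exactly the same region had a peak on both strands for 10 unit peaks in replicate 1 (21.7%) and 8 in replicate 2 (15.7%), against 50.8% and 50.4% of all peaks of the lists. These made 5 regions in replicate 1 and 4 in replicate 2. Among the peaks below 9 Mb on chromosome 21 outside the units, the share was 42.4% in replicate 1 and 29.4% in replicate 2. Counted by any overlap with a peak on the other strand, it was 14 of 46 unit peaks (30.4%) and 14 of 51 (27.5%). In 18S rRNA of RNA45SN3, offset 3817, the strands had 37 and 34 tags in replicate 1, in 5′ETS of RNA45SN3, offset 2917, they had 38 and 76 in replicate 2, and in ITS1 of RNA45SN3, offset 5917, they had 6 and 40. The methods name the KAPA RNA HyperPrep Kit for the libraries of the precipitation. They do not say whether the libraries kept strand, so tags on the minus strand cannot be read as antisense RNA. The authors' lists label the 21 and 25 plus-strand peaks as intron and all minus-strand peaks as antisense, for the long non-coding genes ENSG00000280441 (32 and 34 peaks) and ENSG00000278996 (12 and 17 peaks) and, for 2 peaks of replicate 1, RNA5-8SN3. Apart from those 2 peaks, the lists give the units under names of long non-coding genes and not of rRNA.

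The 3 units had similar numbers of peaks but different profiles, by the unit in which the lists place each peak. RNA45SN2 had 12 and 17 peaks, RNA45SN3 had 15 and 17, and RNA45SN1 had 19 and 17. In replicate 1, RNA45SN1 had 32.2 tags per kb (95% interval 29.2 to 35.4), RNA45SN3 had 25.5 (22.8 to 28.3) and RNA45SN2 had 23.5 (20.97 to 26.3). In replicate 2 the values were 33.5 in RNA45SN1 (30.4 to 36.7), 55.8 in RNA45SN3 (51.9 to 59.99) and 94.3 in RNA45SN2 (89.2 to 99.7). The level of RNA45SN2 rested on 1 place in each list. In replicate 2, 1126 of its 1256 tags were in 5′ETS, and without the place at offset 414 it had 188 tags, or 14.1 per kb (12.2 to 16.3). In replicate 1, without the bin at offset 10664, it had 162 tags, or 12.2 per kb (10.4 to 14.2). With these places left out of RNA45SN2 alone and all tags kept in the other units, RNA45SN2 had the fewest tags per kb in replicate 2, in place of the most. In replicate 1 it had the fewest with all tags too. The other units kept their own tallest places, so this is not a like-for-like order of the 3 units.

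RNA45SN1 had no peak in a mature rRNA in replicate 1 and 3 in replicate 2. Its 5′ETS had 13 peaks in replicate 1 and 7 in replicate 2, with 79.4 and 65.7 tags per kb, and its ITS2 had 4 and 4 peaks. RNA45SN3 had 1 peak in ITS1 in replicate 1 and 6 in replicate 2, and its 18S rRNA had the only peaks over 7 tags in 18S rRNA of the 3 units. RNA45SN2 had 5 and 7 of the 6 and 12 peaks in 28S rRNA.

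A few peaks lay at the ends of the mature rRNAs, where the precursor is cut. Of the 18 ends in the 3 units, a peak covered 2 in each list (11.1%), beside 5.98% and 6.72% of all unit bins. The lists do not say which base of a read places its tag, so distances below are those of the listed bins and not of the fragments. In replicate 1, a peak of 18 tags covered the 5′ end of 5.8S rRNA of RNA45SN3 and another of 18 tags covered its 3′ end, both on the minus strand. In replicate 2, a peak of 8 tags on the plus strand covered the 5′ end of 5.8S rRNA of RNA45SN1, and a peak of 10 tags on the plus strand covered the 3′ end of 28S rRNA of RNA45SN2. Within 100 bases of an end without covering it, replicate 1 had a peak 71 bases before 5.8S rRNA of RNA45SN2 (7 tags), and replicate 2 had peaks 26 bases before 18S rRNA of RNA45SN1 (21 tags), 81 before 18S rRNA of RNA45SN2 (8 tags), 56 before 5.8S rRNA of RNA45SN3 on both strands (32 tags per bin on the plus strand and 31.5 on the minus strand) and 96 before 28S rRNA of RNA45SN1 (81 tags). None of these was found on the same strand in the other list at the same unit, but the peak before 5.8S rRNA of RNA45SN2 in replicate 1 and that on the minus strand before 5.8S rRNA of RNA45SN3 in replicate 2 overlapped at the aligned place. For the other ends and lists, the nearest peak of the same unit lay between 121 and 5461 bases away. The share of the units that lies within 100 bases of an end was not counted. The peaks named here therefore do not show whether peaks were more frequent near the ends.

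The lists were also read for genes that make and assemble the ribosome, beside a share of 0.1% of all named genes with a peak on either strand in replicate 1 and 0.132% in replicate 2, a share at which lists of these lengths would mostly hold none. Of 20 genes for transcription by RNA polymerase I and of 39 for proteins that process pre-rRNA and assemble subunits, none had a peak in either list. Of 16 RNAs that guide or carry out pre-rRNA processing, SNORD3B-2, a gene of the U3 small nucleolar RNA that acts in the first cuts of the precursor, had a peak of 21 tags in replicate 2, on the strand opposite to the gene, and the list of replicate 1 had none. Of 22 genes of the 5S ribonucleoprotein, 5 had a peak in replicate 1 and 3 in replicate 2, each of them a copy of 5S rRNA, the rRNA that RNA polymerase III makes outside the nucleolar repeats. RNA5S7 had 17 tags on the plus strand and 9 on the minus strand in replicate 1, and 9 and 8 in replicate 2, and was the 1 copy found in both lists on the same strand. RNA5S6 had 7 tags on the minus strand in replicate 1 and 6 on the plus strand in replicate 2. RNA5S8 (12 tags), RNA5S11 (10) and RNA5S12 (8) had peaks in replicate 1, and RNA5S10 (6) in replicate 2. The copies of 5S rRNA are near-identical, so the copy that a tag came from is uncertain.

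Beyond the units, sequence of the same kind held further peaks. Below 9 Mb on chromosome 21, outside the units, 33 peaks lay in replicate 1 and 34 in replicate 2, and all 33 and 34 lay at sequence similar to part of a unit. By the part they resembled, 20 of 33 and 23 of 34 were spacer, with 15 and 19 like 5′ETS, while 4 and 5 were like 18S rRNA and 9 and 5 like 28S rRNA. The length of similar sequence of each part outside the units was not counted, so these counts do not show a higher density in spacers there. Of the 33 and 34 peaks, 51.5% in replicate 1 and 50% in replicate 2 were shared with the other list on the same strand, against 28.3% and 25.5% in the units, a difference that was described and not tested. Their median was 12 and 10 tags per bin, against 16 and 12 in the units. No peak of either list lay on a scaffold.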

How the data were processed

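A549 cells gave 2 FSCN1 IP and 2 input samples. According to the methods, the authors crosslinked the cells, used HISAT2 to place 150-base paired reads on GRCh38. Reads with several alignments and PCR duplicates were discarded, and the peak callers were ABLIRC and Piranha. The sources used here do not say which caller made the lists analysed here. Tool versions are not given in the sources used here. The authors deposited 1 peak list per IP sample, called per sample. The methods also describe a screen of ABLIRC peaks by abundance over the input, but the lists hold no such value and do not show whether their regions passed it. The signal in the authors' lists is the mean number of tags per 50-bp bin, not scaled to library size, and the p-value is the authors' own and was used only as a filter. For all 36 regions of several bins, the deposited signal times the number of bins was whole within 0.01.

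Peaks were kept that overlap a unit by at least 1 bp. Starts were counted from 1. Positions of the units and of the mature rRNAs in them came from RefSeq genes on GRCh38. A peak belongs to the part that covers most of it. Units were aligned with MAFFT 7.526, and 150-base sequences were counted on both strands over 25 chromosomes and 169 scaffolds (261 alternate sequences left out), with a counter tested on simulated data. Similar sequence was searched with blastn 2.17.0 over each peak with 50 bp on either side, at 85% identity over at least 40 bp. Other tools were Python 3.11.15, numpy 2.4.6, pandas 2.3.3, scipy 1.17.1, pysam 0.24.0, numba 0.67.0 and matplotlib 3.10.9.

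With 2 lists of 1 condition, no groups were tested. Values have exact Poisson (tags) or Wilson (shares) 95% intervals, or a mean with SD. Named were the units with their mature rRNAs, the 5 tallest unit peaks per list, the 5 shared places with the largest mean tags, the peaks nearest the ends of mature rRNAs, and listed ribosome genes with a peak. Other places and the pairs of aligned places were named after their values were seen. The members and lists were chosen with earlier results of these data known. Alternatives were stricter thresholds, merged strands, other overlap rules, shorter sequences and single replicates. Searches without scaffolds, sequences that touch a bin, and leaving out the tallest place were chosen after seeing the data.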

Additional observations from a re-analysis of the deposited data

How the results depend on the processing

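The mean spacer share of peaks moved by less than the spread between replicates, but weighted by tags it was 69.1% in replicate 1 and 84.5% in replicate 2, in place of 78.3% and 74.5%. Bins with a peak stayed denser in spacers than in mature rRNAs, under each alternative run for their density. The 46 and 51 unit peaks became 36 and 36 above the median tags of each list, 41 and 49 with an authors' p-value of at most 1e-05, and 39 and 44 with strands merged. Above the median tags, the units held 40.8% of peaks in place of 23.4%, with 1.66 bins with a peak per kb in spacers and 0.400 in mature rRNAs. With overlapping peaks of both strands counted at 1 position, the units held 27.5% of the list. With an authors' p-value of at most 1e-05, the plus-strand share of unit peaks was 43.0%. Counted at the aligned place of any unit, 21 unit peaks of replicate 1 overlapped replicate 2 in place of 13. The share of bins with a peak that hold no unique sequence was 97.8% with 50-base sequences, 72.2% with 150-base sequences on the chromosomes without scaffolds, and 64.4% there when sequences only touch the bin. The cause of these changes was not tested. Leaving out a replicate gave 21.4% to 25.4% of the list in the units, a spacer share of 74.5% to 78.3%, a plus-strand share of 45.7% to 49.0%, 1.98 to 2.19 bins per kb in spacers and 0.518 to 0.612 in mature rRNAs. The mean ratio of tags per kb, spacers over mature rRNAs, was 3.82 without the tallest place of each list, a setting chosen after seeing the data. No paired analysis was possible because only IP samples had lists and no test was run. The lists start at 7 and 6 tags per bin, so weaker regions are not seen, and without library depth or input no level can be set between replicates or against background.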
